A study of Mus musculus with 8 samples.

Results

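The genes described here are 10 members of the machinery that shows peptides to T cells, measured in mouse liver by 20 array probes. They were chosen by name, as every gene probe whose symbol, in the array's own annotation or through its accession, was H2-Aa, H2-Ab1, H2-Eb1, Cd74, Ciita, B2m, H2-K1, H2-D1, Tap1 or Tap2, out of 27597 gene names on the array. All 20 probes were tested, were well above background in all 16 channels and had 0 saturated spots. Major histocompatibility complex (MHC) class II molecules present peptides taken up from outside the cell and are made mainly by dendritic cells, macrophages and B cells. MHC class I molecules present peptides from inside the cell and are made by nearly all nucleated cells, hepatocytes included. Interferon gamma raises both sets, and the class II set depends on the coactivator Ciita.

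Liver RNA came from ICR scid mice aged 8 weeks, an outbred stock carrying the scid mutation, which leaves the animals without mature T and B cells. Every group carried that mutation, controls included. The groups were untreated males and untreated females, males 5 days after Adeno-Cux2 or Adeno-CMV, females 5 days after the same treatments, and males 3 days after them. Adeno-Cux2 is an adenovirus carrying Cux2, a homeobox repressor that is normally made in female rather than male mouse liver, and Adeno-CMV is the control virus that the comparison groups received. Each of the 4 comparisons had 2 arrays, each with its own pair of pooled RNAs and with the dyes reversed. A pool held 5 untreated mice of either sex, 6 or 7 males at day 5, 3 or 4 females at day 5, and 5 or 6 males at day 3. The p-values therefore measure spread between pools, not between mice. Fewer cells of a type and less RNA per cell cannot be told apart in such bulk tissue. A single slide held the untreated arrays with those of males at day 5, and a second slide held the rest.

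Spots had median signals of 343 to 442 (green) and 430 to 512 (red), with a local background of 289 to 342.5, and the 2 arrays of a comparison correlated at 0.596 to 0.89 over 33330 probes. By its first probe Cux2 itself differed by -1.88 ± 0.09 (log2, SE) between untreated males and females, by 0.60 ± 0.09 in males at day 5 and by 0.49 ± 0.09 in males at day 3. Among females at day 5 Cux2 was lower in the pools labelled Adeno-Cux2, by -0.61 ± 0.09, so all treated pools are named here by their labels. The second Cux2 probe gave smaller ratios of the same signs, at -1.31, 0.31, 0.43 and -0.33 in the same order. Whether the Cux2 probes read the viral transcript is not given in the sources used here. Hepatocyte RNA was present in every pool, with all 14 tested hepatocyte probes well above background in all 16 channels. In males at day 3, 0 of the 14 were higher and 8 lower (adjusted p under 0.05, limma), with a median of -0.31. Over all probes 22.8% were higher and 20.1% lower there. At day 5, 4 were higher and 1 lower in males (12% and 4.79% of all probes), and 2 and 1 in females (11.2% and 6.2%). The part of hepatocytes in the member ratios was not tested.

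The sequences upstream of the genes are shown first as a description, and no test linked them to the ratios. The RefSeq table of mouse promoters (GRCm38.p6) held 6 of the 10 genes, and 4 are shown, 2 of each class, as the 180 bases before the transcription start on the gene's strand. Capitals mark motifs found on either strand, which were CTGATTGG (the Y box, bound by NF-Y), GCAAC (the core of the X1 box, bound by RFX), TGACG (the core of a cAMP response element, as in the X2 box), AANNGAAA (bound by interferon regulatory factors) and GGGANNNNCC (a kappa B site).
H2-Aa: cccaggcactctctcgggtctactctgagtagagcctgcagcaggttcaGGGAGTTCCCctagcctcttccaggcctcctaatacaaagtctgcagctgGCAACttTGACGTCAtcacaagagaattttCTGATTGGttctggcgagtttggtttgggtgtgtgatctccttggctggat
H2-Eb1: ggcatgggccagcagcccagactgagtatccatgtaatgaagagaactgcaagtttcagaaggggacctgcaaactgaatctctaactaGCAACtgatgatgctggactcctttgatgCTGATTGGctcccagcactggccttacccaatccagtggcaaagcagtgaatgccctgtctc
H2-D1: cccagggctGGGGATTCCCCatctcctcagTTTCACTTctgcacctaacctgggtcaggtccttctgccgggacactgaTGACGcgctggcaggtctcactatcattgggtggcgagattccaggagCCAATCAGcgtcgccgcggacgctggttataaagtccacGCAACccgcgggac
B2m: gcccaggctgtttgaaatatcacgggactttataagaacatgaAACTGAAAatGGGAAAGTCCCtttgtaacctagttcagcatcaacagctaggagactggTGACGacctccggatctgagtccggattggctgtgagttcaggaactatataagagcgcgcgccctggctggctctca
These windows are chr17:34287824-34288003 (minus strand) for H2-Aa, chr17:34305687-34305866 (plus) for H2-Eb1, chr17:35262914-35263093 (plus) for H2-D1 and chr2:122147507-122147686 (plus) for B2m. The letters are those of the reference strain, and ICR alleles were not read here.

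In the 250 bases before the start, H2-Aa held the Y box letters at base 51 before the start, the X1 core at base 81 and, between them, TGACG at base 74, which overlaps its own reverse at base 71. Further out it held the kappa B letters at base 131, where 1 stretch reads on both strands. The interferon regulatory factor letters at base 213 lie outside the 180 bases shown. H2-Eb1 held the Y box letters at base 62 and the X1 core at base 91. H2-D1 held the Y box letters on the other strand at base 53, the X1 core at base 14 and, on the other strand and outside the bases shown, at base 212, TGACG at base 101, the interferon regulatory factor letters at base 150 and the kappa B letters at bases 170 and 171, where 1 stretch reads on both strands. B2m held TGACG at base 78, the interferon regulatory factor letters at base 137 and the kappa B letters at bases 126 and 127, also 1 stretch. Of 32841 promoter windows of this length, 3.83% held CTGATTGG, 17.8% TGACG, 29.9% GCAAC, 21.3% AANNGAAA and 17.6% GGGANNNNCC. A match describes letters only, and no binding was measured.

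At day 5, class II RNA was higher in the livers labelled Adeno-Cux2 than in the Adeno-CMV livers of both sexes, while at day 3 in males 0 of its probes were called. Class I probes were called higher in part, in males at both times and not in females. All 9 class II probes rose in males at day 5, with a median log2 ratio of 1.68 and a range of 0.73 to 1.81. The same 9 rose in females, with a median of 0.84 and a range of 0.66 to 0.91. At day 3, 0 of the 9 passed the test in limma, 0 had an unadjusted p under 0.05, and the median was 0.12. That count depended on the normalization: with median centring in place of loess all 4 H2-Ab1 probes were called higher at day 3, at 0.33 to 0.36 with adjusted p of 0.0164 to 0.026. Left-out arrays moved it as well, with Cd74 called higher without replicate 2 (0.42, adjusted p 0.0357, limma) and the H2-Aa probe A_52_P343306 called lower without replicate 1 (-0.67, adjusted p 0.00932). H2-Ab1 A_52_P683598 was also called without background subtraction, at 0.14 (adjusted p 0.0396). Class I probes were called higher in 5 of 11 cases in males at day 5 (median 0.35), in 0 of 11 in females (0.01) and in 7 of 11 at day 3 (0.50).

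A probe is called when its Benjamini-Hochberg adjusted p in limma is under 0.05 over all 33330 probes tested. Among males at day 5, 14 of the 20 member probes were called higher and 0 lower, where 12% of all tested probes were called higher and 4.79% lower. The female comparison had 9 of 20 called higher and 0 lower, against 11.2% and 6.2% of all probes. The day 3 comparison had 7 of 20 called higher and 0 lower, that is 35% called higher beside 22.8% of all probes, of which 20.1% were called lower. In untreated males over females 1 was called higher and 1 lower, against 4.71% and 5.07% of all probes. The members' share of calls was thus far from that of all probes at day 5, less so at day 3, and near it in untreated mice. At day 3, 53.2% of all called probes were higher, and 69.2% when arrays were centred on the median in place of the loess curve.

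**Figure D1:**
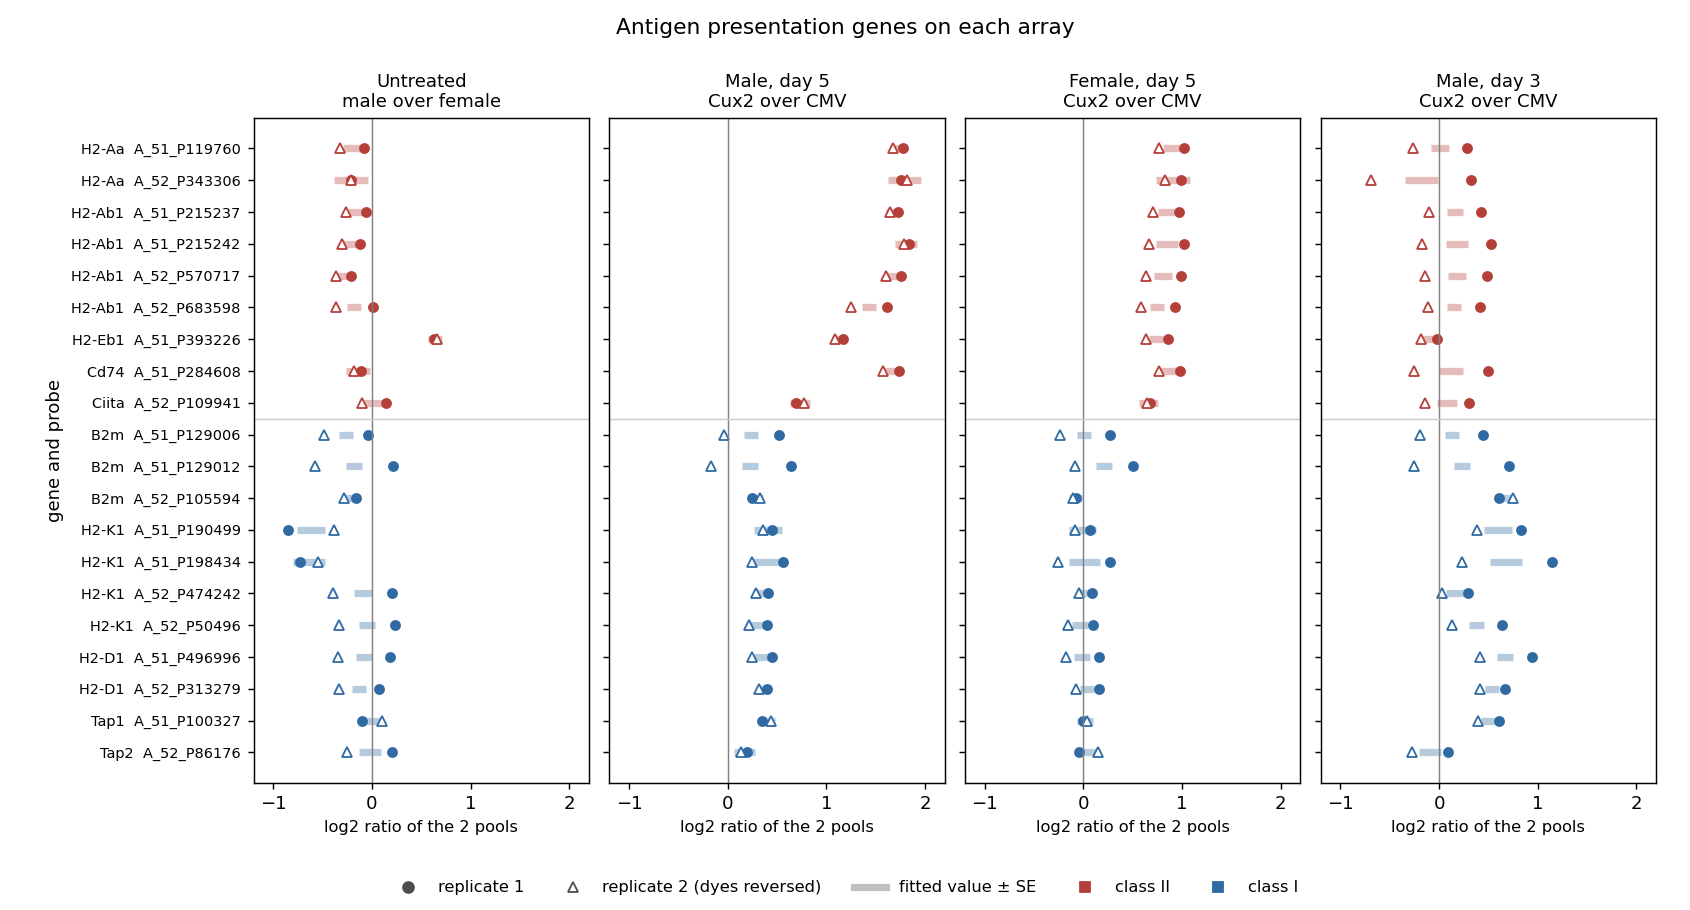
Log2 ratio (x axis) of each member probe (rows) on the 2 arrays of each comparison: circles are replicate 1, triangles replicate 2 with the dyes reversed, bands the fitted value ± SE, red class II and blue class I. In both day 5 panels all class II points lie above 0 (0.69 to 1.84 in males, 0.58 to 1.02 in females), and in the male day 3 panel the replicates lie on both sides of 0 for 8 of the 9 class II probes, H2-Eb1 being below 0 on both.

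H2-Aa and H2-Ab1 encode the alpha and beta chains of the I-A class II molecule. The H2-Aa probe A_51_P119760 (chr17:33892022-33892081 on mm8, minus strand) had log2 ratios of 1.78 and 1.68 on the 2 male day 5 arrays, 1.02 and 0.77 on the female day 5 arrays, 0.28 and -0.26 on the male day 3 arrays and -0.08 and -0.32 in untreated males over females. Both arrays were thus above 0 at day 5 in each sex, and they fell on opposite sides of 0 at day 3. The fitted ratio was 1.73 ± 0.09 in males (SE, adjusted p 7.57e-05, limma), 3.32-fold, and 0.90 ± 0.09 in females (adjusted p 0.000979), 1.86-fold. At day 3 it was 0.01 ± 0.09 (adjusted p 0.932), with a 95% interval of -0.19 to 0.22. The second H2-Aa probe, A_52_P343306 (chr17:33892680-33892739), gave 1.79 ± 0.17 in males and 0.91 ± 0.17 in females at day 5, and its female call was lost when either replicate was left out.

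The 4 H2-Ab1 probes behaved alike, although 1 of them, A_52_P570717, has no position in the array's annotation. At day 5 their fitted ratios were 1.43 to 1.81 in males and 0.75 to 0.85 in females, and at day 3 they were 0.15 to 0.18. Of these calls 1 was lost, that of A_51_P215242 in females without replicate 1 (adjusted p 0.0584, limma). The probe A_51_P215237 (chr17:33875638-33875697, plus strand) is printed 10 times on each array, and its ratios were 1.73 and 1.64 on the male day 5 arrays, 0.97 and 0.71 on the female ones, 0.42 and -0.10 at day 3 and -0.06 and -0.26 in untreated mice. Its 10 spots had an SD of 0.03 to 0.05 on each array, so the gap between the 2 arrays at day 3 was larger than the spread of spots on 1 array.

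H2-Eb1 encodes the beta chain of the I-E class II molecule. Its probe A_51_P393226 (chr17:33922800-33923261, plus strand, 462 bases from first to last, so split over the genome) had ratios of 1.17 and 1.09 on the male day 5 arrays, 0.86 and 0.63 on the female ones, and -0.02 and -0.18 at day 3. The fitted values were 1.13 ± 0.07 (adjusted p 0.000122, limma), 0.74 ± 0.07 (adjusted p 0.000915) and -0.10 ± 0.07 (adjusted p 0.297). H2-Eb1 was also the 1 member probe that was higher in untreated males than in untreated females, with ratios of 0.63 and 0.66 and a fit of 0.64 ± 0.07 (adjusted p 0.00266, limma), 1.56-fold. The other 8 class II probes had untreated ratios of -0.29 to 0.02, and 0 of them were called, with 2 at an unadjusted p under 0.05.

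Cd74 encodes the invariant chain, which fills the peptide groove of class II molecules until they reach the endosome. Its ratios were 1.74 and 1.57 on the male day 5 arrays, 0.98 and 0.77 for females, 0.50 and -0.25 at day 3 and -0.11 and -0.18 in untreated mice. It rose by 1.66 ± 0.12 in males (adjusted p 0.000186, limma), 3.15-fold, and by 0.87 ± 0.12 in females (adjusted p 0.0035), 1.83-fold. Without female replicate 2 the adjusted p was 0.0518. The probe lies on chromosome 18.

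Ciita, the class II transactivator, had ratios of 0.69 and 0.77 in males at day 5 and 0.68 and 0.64 in females, so the values of the sexes were close but did not overlap. Its probe A_52_P109941 (chr16:10439788-10439847, plus strand) rose by 0.73 ± 0.10 in males (adjusted p 0.00271, limma) and 0.66 ± 0.10 in females (adjusted p 0.00482), 1.66-fold and 1.58-fold. At day 3 the ratios were 0.30 and -0.14 and in untreated mice 0.14 and -0.10, on both sides of 0 each time. Ciita was the dimmest class II member, at a log2 signal of 6.38 to 8.18 per pool, and without male day 5 replicate 2 its male ratio was 0.57 with an adjusted p of 0.106 in limma. Its female ratio was 0.74 without replicate 1 (adjusted p 0.0508) and 0.58 without replicate 2 (adjusted p 0.0763). The male size also moved with the background step, to 0.26 without subtraction and 1.36 with the software's ratios, both called.

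**Figure D2:**
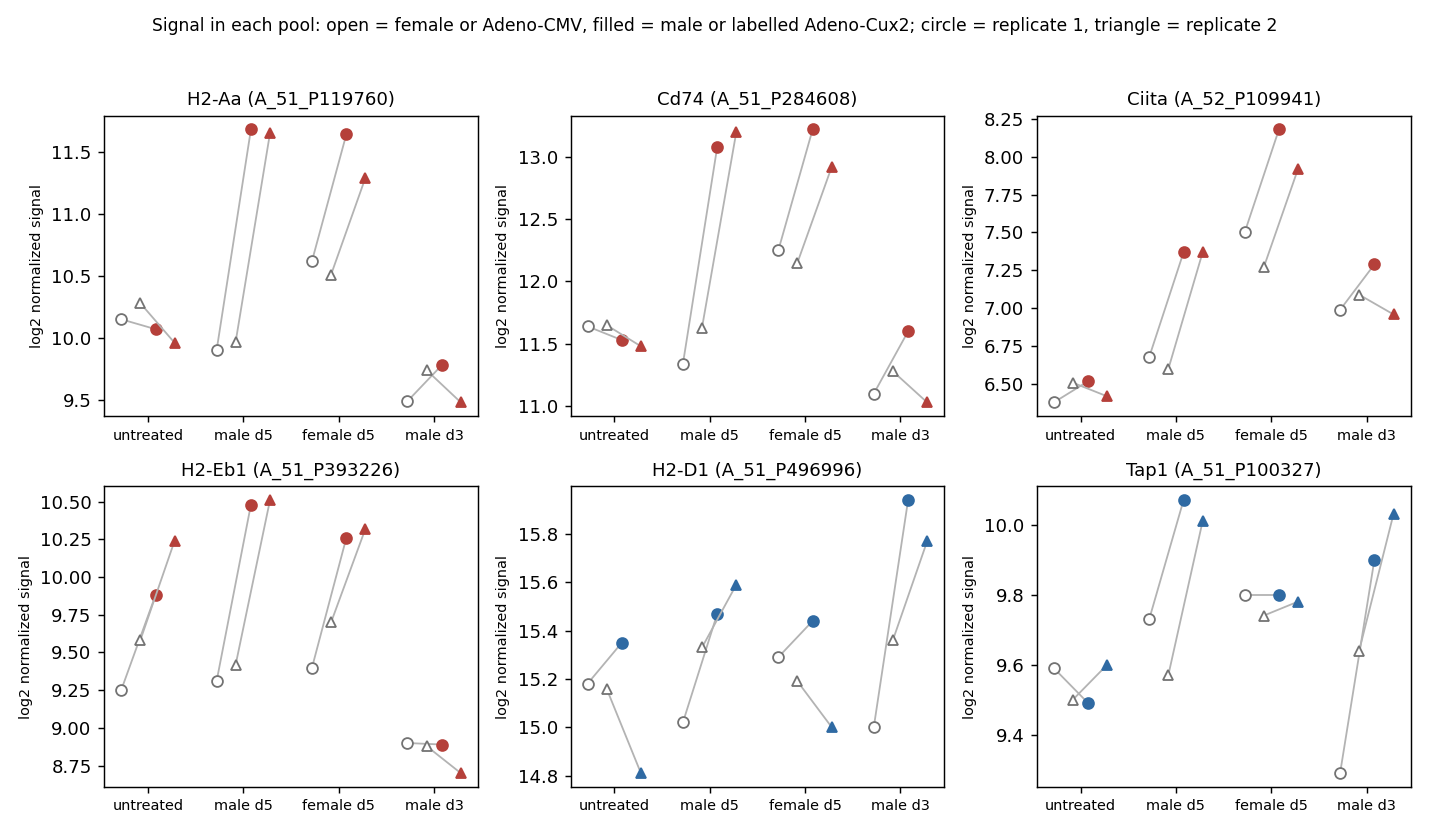
Log2 normalized signal (y axis, a scale for each panel) of 6 member probes in each of the 16 pools: open symbols are untreated female or Adeno-CMV pools, filled symbols untreated male pools or those labelled Adeno-Cux2, and lines join the 2 pools of an array. H2-Aa was 9.90 and 9.97 in the male day 5 Adeno-CMV pools and 11.68 and 11.65 in those labelled Adeno-Cux2, while in females the Adeno-CMV pools already stood at 10.62 and 10.51.

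The pool signals show where the 2 sexes stood before the ratio is taken. Cd74 had log2 signals of 11.34 and 11.63 in the male day 5 Adeno-CMV pools and 12.25 and 12.15 in the female ones, against 13.08 and 13.20, and 13.22 and 12.92, in the pools labelled Adeno-Cux2. The Adeno-CMV pools thus differed more between the sexes than the pools labelled Adeno-Cux2 did. The sexes lay on different slides, so slide and sex cannot be told apart in these signals, and no test was made of them.

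B2m encodes the light chain of class I molecules, and its 3 probes disagreed. The probe A_52_P105594 (chr2:121840304-121840363 on mm8, plus strand) had ratios of 0.61 and 0.75 in males at day 3, 0.25 and 0.33 on the male day 5 arrays, -0.07 and -0.10 for females and -0.16 and -0.28 in untreated mice, close on both arrays each time. It rose by 0.68 ± 0.07 at day 3 (adjusted p 0.000352, limma) and 0.29 ± 0.07 at day 5 in males (adjusted p 0.0345), the latter call lost when either replicate was left out. This probe was far dimmer than the others, at a log2 signal of 9.05 to 10.76 per pool against 16.49 to 17.96. The array's annotation lists 0 RefSeq transcripts for it and 1 for each of the others, so its calls may not stand for the main B2m RNA. The other probes lie further along the gene, at chr2:121844106-121844165 and chr2:121844230-121844286. There the arrays were apart, with ratios of 0.71 and -0.25, and 0.45 and -0.19, in males at day 3, and fits of 0.23 ± 0.08 and 0.13 ± 0.07 that were not called. One of them, A_51_P129006, is printed 10 times with a spot SD of 0.02 to 0.10, so the gap lay between arrays or dyes and not between spots.

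H2-K1 encodes the K heavy chain of class I. Its 4 probes fall in 2 places, an overlapping pair at chr17:33606564-33606623 and chr17:33606572-33606626 that share 52 bases, and a pair at chr17:33609797-33609856 and chr17:33609987-33610233 (all minus strand). In males at day 3 the overlapping pair gave 0.60 ± 0.14 (ratios of 0.83 and 0.38) and 0.68 ± 0.16 (1.14 and 0.23), both called with adjusted p of 0.0124 and 0.0129 in limma, and neither was called without replicate 1 of that comparison, at 0.34 each. The others gave 0.38 ± 0.08 (adjusted p 0.0102, lost when either replicate was left out) and 0.16 ± 0.09 (adjusted p 0.211). In untreated mice the pairs parted, with -0.62 and -0.64 for the overlapping probes and -0.05 and -0.09 for the others. On replicate 1 the signs were opposite, at -0.85 and -0.73 against 0.23 and 0.20, whereas on replicate 2 all 4 were below 0, at -0.33 to -0.55. The 1 of these that was called lower in untreated males, A_51_P190499 (adjusted p 0.0404, limma), was not called without replicate 1. At day 5 in males the 4 probes gave 0.31 to 0.41 and 1 was called, though not when either replicate was left out.

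H2-D1 encodes the D heavy chain. Its probe A_51_P496996 (chr17:34874545-34874777, plus strand) had ratios of 0.94 and 0.41 in males at day 3, 0.45 and 0.25 on the male day 5 arrays, 0.16 and -0.18 for females and 0.18 and -0.34 in untreated mice. Both arrays were above 0 in each male virus comparison and on both sides of 0 in the other comparisons. The fits were 0.67 ± 0.08 at day 3 (adjusted p 0.000596, limma), 1.60-fold, and 0.35 ± 0.08 at day 5 (adjusted p 0.0252), 1.27-fold, while in females it was -0.01 with a 95% interval of -0.20 to 0.17. The other H2-D1 probe gave 0.54 ± 0.07 at day 3, 0.36 ± 0.07 at day 5 and 0.04 ± 0.07 in females. Both day 3 calls held with either replicate left out and both day 5 calls were lost when either was left out. Class I heavy chains are near copies of each other, so these probes may also read relatives.

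Tap1 and Tap2 form the transporter that carries peptides into the endoplasmic reticulum for class I. Tap1 (A_51_P100327, chr17:33804121-33804180, plus strand) had ratios of 0.61 and 0.39 in males at day 3 and 0.35 and 0.44 in males at day 5, against 0.00 and 0.04 in females and -0.10 and 0.10 in untreated mice. It rose by 0.50 ± 0.08 at day 3 (adjusted p 0.00303, limma) and 0.40 ± 0.08 at day 5 (adjusted p 0.0199) in males, with the day 3 call lost without replicate 1 (0.33, adjusted p 0.0692) and the day 5 call when either replicate was left out. Tap2 (chr17:33825052-33825639) was not called in any of the 4 comparisons, with fits of -0.09 to 0.17. H2 genes vary widely between haplotypes, ICR mice are outbred, and the probes follow the reference, an effect that was not tested.

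The response of males at day 5 was set against that at day 3 in the same fit. All 9 class II probes were higher at day 5, by 0.65 to 1.98 with adjusted p of 0.0017 to 0.0276 in limma, and 1 class I probe, B2m A_52_P105594, was lower by -0.39 ± 0.10 (adjusted p 0.0497). These are 10 of 20 member probes, where 12.1% of all probes differed. H2-Aa A_51_P119760 differed by 1.72, with a 95% interval of 1.43 to 2.01, and Ciita by 0.65, with an interval of 0.32 to 0.97. The number called was 6 without replicate 1 of the male day 5 arrays and 3 without replicate 2. The 2 times lie on different slides and used different pools, so time and slide cannot be told apart here.

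Between females and males at day 5, 0 of the 20 member probes differed at an adjusted p under 0.05 in limma, and 15 had an unadjusted p under 0.05. Over all 33330 probes 0.201% passed in that contrast and 3352 had an unadjusted p under 0.05. All 20 differences were below 0, that is, smaller ratios in females. For 8 of the 9 class II probes they ran from -0.96 to -0.38, with adjusted p from 0.055 to 0.249, and Ciita differed by -0.07, with a 95% interval of -0.39 to 0.26. H2-Aa A_51_P119760 differed by -0.83, with an interval of -1.12 to -0.54 before adjustment for the number of probes. The class I probes differed by -0.41 to -0.02. Sex and slide cannot be told apart in this contrast, and it does not show that the sexes act alike.

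The 2 arrays of a comparison did not sit level for these genes. At day 3 replicate 1 was higher than replicate 2 for 9 of 9 class II probes, by a median of 0.54, and for 10 of 11 class I probes, by 0.45, against a median absolute gap of 0.13 over all probes. For males at day 5 the median gaps were 0.09 and 0.11, against 0.10 over all probes. The gap holds the pools and the dyes together, and a part of it that is common to all comparisons was fitted as a dye term.

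The proteins that load class II molecules and the factors that regulate them were read as a list of 24 tested probes. Of these, 14 were called higher and 1 lower in males at day 5, with a median of 0.40. They included Ctss, the cathepsin that trims the invariant chain, at 2.18, H2-Ea, the I-E alpha chain, at 1.78, and H2-DMb1 and H2-DMb2, beta chains of the peptide exchanger DM, at 1.46 each. In females at day 5, 10 were higher and 1 lower, with a median of 0.26, led by Ctss at 1.48, Marchf1, a ligase that removes class II from the surface, at 1.06 and the protease Lgmn at 1.02. At day 3 in males 12 were higher and 2 lower, with a median of 0.22. There Lgmn stood at 1.54, Ctss at 1.40, the thiol reductase Ifi30 at 1.14 and Marchf8 at -1.11, while H2-Ea was at 0.17 and not called. The shares higher were 58.3%, 41.7% and 50% in males at day 5, females and males at day 3, beside 12%, 11.2% and 22.8% of all probes. Those lower were 4.17%, 4.17% and 8.33%, beside 4.79%, 6.2% and 20.1%. In untreated males 0 were higher and 5 lower, with Ctsl at -0.98, Ctss at -0.64, Nfyb at -0.53 and H2-Ea at -0.42 among them. The share lower was 20.8%, beside 5.07% of all probes. Of the RFX and NF-Y subunits, which bind the X and Y boxes, Rfxap, Rfxank, Nfya and Nfyc were called in neither day 5 comparison, while Nfyb and 1 of 2 Rfx5 probes rose in males at day 5, by 0.38 to 0.43 and 0.33.

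The list of class I loading and processing had 18 tested probes, and in males 7 rose and 1 fell at day 5 (median 0.18) and 6 rose at day 3 (0.13), with 3 rising in females (0.08). The shares that rose were 38.9%, 33.3% and 16.7%, beside 12%, 22.8% and 11.2% of all probes. Tapbp, which bridges TAP and class I, was at 0.61 and 0.38 in males at the 2 times and 0.28 in females by its first probe, all called. Its second probe gave 0.31, called, and 0.11 and 0.18, not called. Psme2, an activator of the proteasome, rose by 0.42, 0.57 and 0.34 by its first probe and 0.36, 0.57 and 0.32 by its second. Of 29 probes for other class I and related heavy chains, 13 rose in males at day 5, 13 rose and 9 fell at day 3, and 4 rose and 1 fell in females. The shares that rose were 44.8%, 44.8% and 13.8%, beside 12%, 22.8% and 11.2% of all probes. Those that fell were 31% at day 3 and 3.45% in females, beside 20.1% and 6.2%. H2-M3, which presents formylated peptides, gave 1.09, 0.83 and, not called, 0.57 by its first probe, and 0.73, 0.54 and 0.47, all called, by its second. A single H2-Q1 probe, A_52_P231729, gave 3.82 in males and 3.47 in females at day 5 and -2.71 in untreated males over females, whereas its 2 sister probes gave 0.31 and 0.34, 0.00 and -0.01, and -0.08 and -0.15.

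The interferon gamma axis had 21 tested probes, and in males 15 rose and 1 fell at day 5 (median 0.43) and 17 rose and 1 fell at day 3 (0.47), with 7 rising and 1 falling in females (0.16). The shares that rose were 71.4%, 81% and 33.3%, beside 12%, 22.8% and 11.2% of all probes. The share that fell was 4.76% each time, beside 4.79%, 20.1% and 6.2%. Irf8, a factor of myeloid cells, led at day 5 in males with 1.02 and Ifngr1, a receptor chain, at day 3 with 1.06. Ifng itself is read by 2 probes. The one above background in all 16 channels gave 0.39 at day 5 and 0.45 at day 3 in males, both called, and -0.01 in females. Socs1, the feedback inhibitor of the pathway, was at 0.80, 0.99 and 0.21 in the same order, the last not called. Irf1, a factor that acts on class I promoters, was at 0.60, 0.27 and, not called, 0.14 by its first probe. Its second probe gave 0.43, called, and 0.01 and 0.09, not called, so the probes disagreed at day 3. No test linked this list to the class I or class II ratios.

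**Figure D3:**
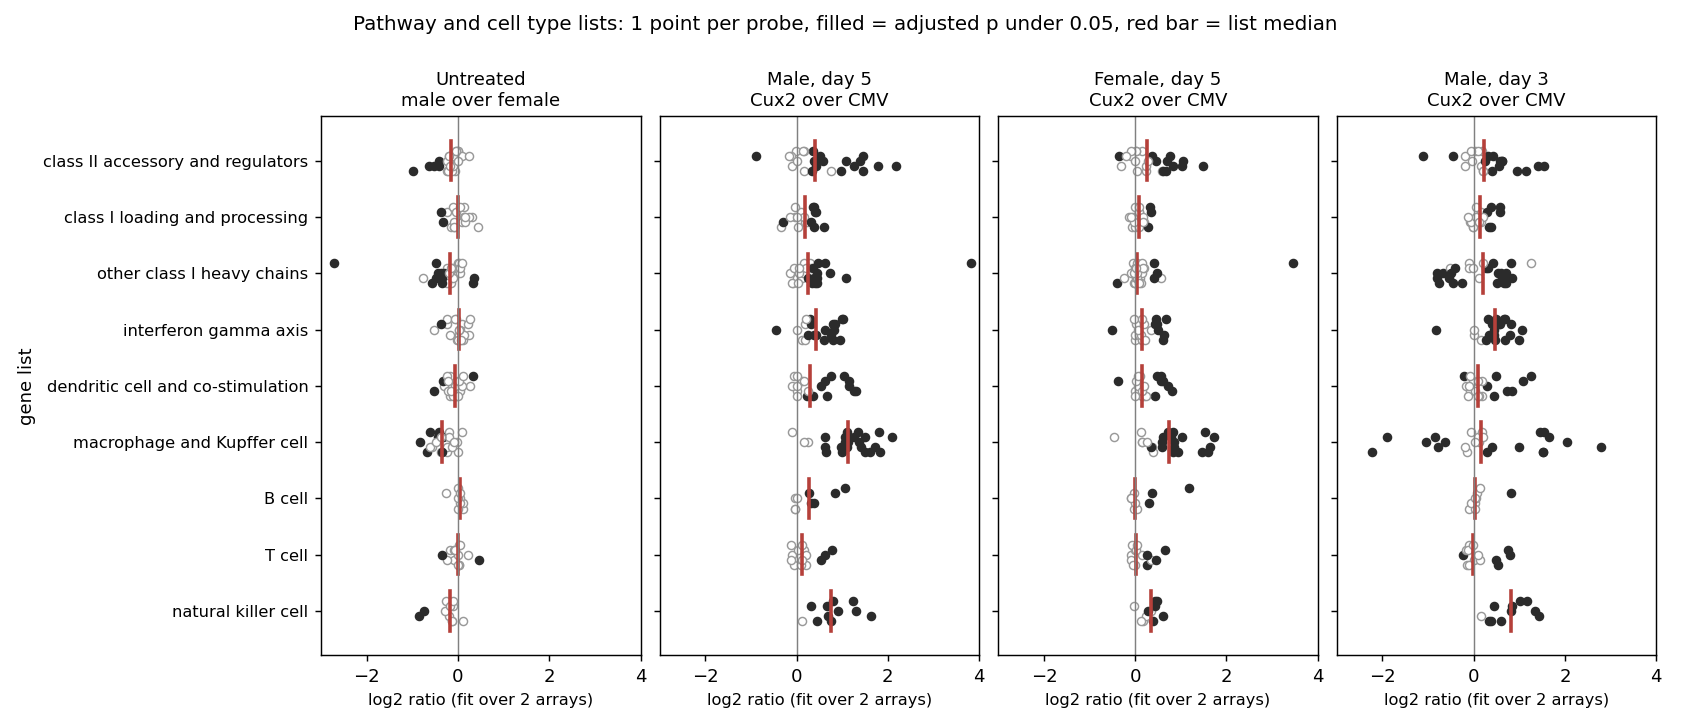
Log2 ratio (x axis) of each tested probe in 9 gene lists (rows) in the 4 comparisons, filled where the adjusted p is under 0.05, with red bars at the list medians. The macrophage list sits at a median of 1.12 in males and 0.75 in females at day 5, and spreads from -2.23 to 2.80 in males at day 3.

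Markers of cells that carry class II were read as further lists. Of 24 macrophage and Kupffer cell probes, 21 rose in males at day 5 (median 1.12) and 17 in females (0.75), whereas 10 rose and 6 fell at day 3 (0.16). The shares that rose were 87.5%, 70.8% and 41.7%, beside 12%, 11.2% and 22.8% of all probes. At day 3, 25% fell, beside 20.1% of all probes. The sum of the list's signals (log2) was 17.51 and 17.74 in the male day 5 pools labelled Adeno-Cux2 and 15.86 to 16.14 in their controls. It was 17.99 to 18.01 against 16.76 in females, and 17.22 to 17.23 against 15.96 to 16.23 in males at day 3. Such sums, here and below, add unlogged signals, so the brightest probes weigh most. The day 3 sum therefore does not stand for the list as a whole, whose median was 0.16. Lyz1, a lysozyme of myeloid cells, gave 2.10, 1.73 and 1.64 in those comparisons. Adgre1, which encodes F4/80, gave 1.49, 0.84 and -0.15 by its first probe, the last not called, and C1qb gave 1.25, 0.78 and 0.10. At day 3 the Kupffer cell markers Clec4f, Vsig4 and Timd4 fell by -2.23, -1.90 and -1.05, while Cd14 rose by 2.80 and Itgam by 2.04. In untreated males 8 of 24 were lower than in females and 0 higher. The share lower was 33.3%, beside 5.07% of all probes.

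Dendritic cell and co-stimulation probes were called higher in 11 of 21 cases in males at day 5 (median 0.30), while females had 7 higher and 1 lower (0.16) and day 3 the same counts (0.10). The shares higher were 52.4%, 33.3% and 33.3%, beside 12%, 11.2% and 22.8% of all probes. Those lower were 4.76% in females and at day 3, beside 6.2% and 20.1%. Itgax, which encodes CD11c, was at 1.31, 0.81 and 0.85 by A_51_P303424, whereas its other probe gave -0.10, 0.07 and 0.01 with no call. Cd83 was at 1.26, 0.09 and 0.72, the female value not called. Cd86, a co-stimulatory ligand, was at 1.16, 0.73 and 0.29 by its first probe and at 1.16, 0.62 and, not called, 0.18 by its second. The largest ratios at day 3 were those of Cd80, at 1.25 by its first probe, and Cd40, at 1.07. Both were smaller in males at day 5, at 0.76 and 0.63. The second Cd80 probe gave 0.30, 0.20 and 0.19 with no call. Of the other dendritic cell markers, Clec9a was at 1.04, 0.47 and 0.48, all called, while Zbtb46 and Ccr7 were called in none of these comparisons. Siglech was lower in females, by -0.37. The Xcr1 probes gave -0.05 and 0.37 in males at day 5, the second called, and -0.22 and -0.13 at day 3, the first called. Summed signals were 12.23 to 12.24 against 11.49 to 11.56 in males at day 5, 12.32 to 12.40 against 11.99 to 12.09 in females and 11.78 to 11.92 against 11.46 to 11.50 at day 3. B cell probes were dim, with 9 of 15 tested. The Ms4a1 probes were above background in 0 and 1 of 16 channels and those of Pax5 in 0 and 3. Natural killer cell probes rose in 10 of 11 cases in males at both times and in 6 of 11 in females, with medians of 0.75 at day 5 and 0.82 at day 3 in males and 0.34 in females. These shares were 90.9% in males at both times, beside 12% and 22.8% of all probes, and 54.5% in females, beside 11.2%. The T cell list gave 3, 4 and 4 of 14 higher and 0, 0 and 1 lower in males at day 5, females and males at day 3. The shares called higher were 21.4%, 28.6% and 28.6%, beside 12%, 11.2% and 22.8% of all probes. The part of these cells in the class I and class II ratios was not tested.

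Tested probes were then ranked by their distance from class means over the 8 arrays. Genes on any of the lists, H2-Ea, H2-DMb2 and C1qb among them, were left out of this ranking and can lie as near or nearer. Of the genes on no list, those nearest to the mean of the H2-Aa, H2-Ab1, H2-Eb1 and Cd74 probes were 2 probes of Cd300c2, a myeloid receptor. Their root mean square differences were 0.23 and 0.26. Il18bp, Klra17 and Ms4a7 followed at 0.30 each. The Cd300c2 probe A_51_P484020 gave 1.56 and 1.59 on the male day 5 arrays, 1.11 and 0.99 on the female ones, and at day 3 it gave 0.29 and 0.15. Nearest to the mean of B2m, H2-K1 and H2-D1 were LOC676708 at 0.09, Gm5065 at 0.10, and Slc3a2, Enc1 and H2-K2 at 0.12. With 8 arrays on 2 slides, these distances are a description of likeness only.

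**Figure D4:**
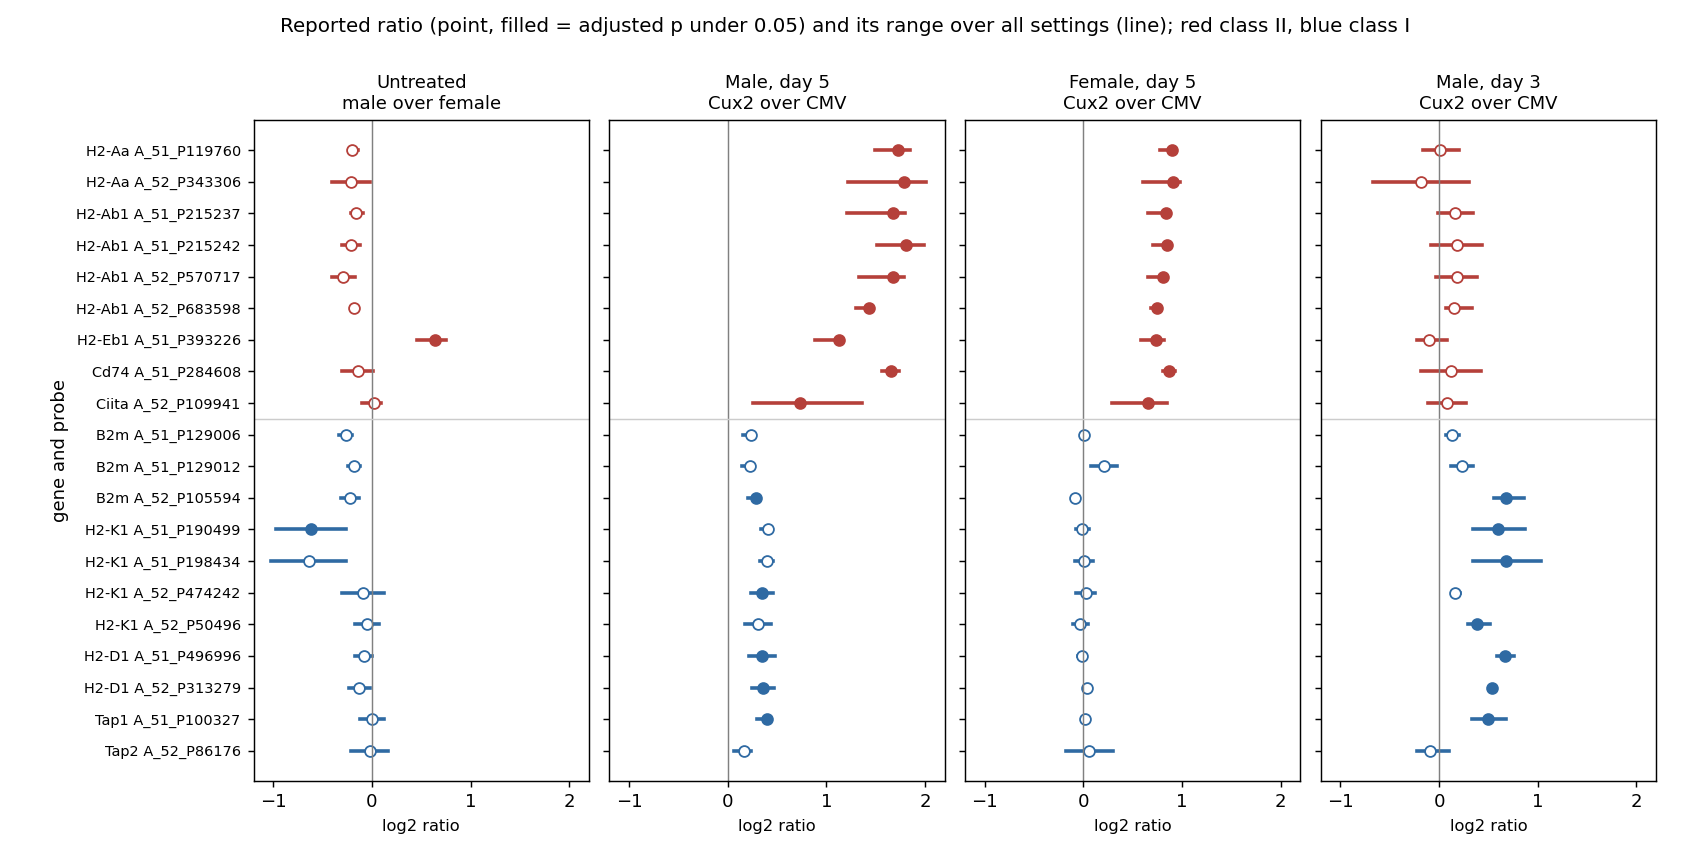
Reported log2 ratio of each member probe (points, filled where called) and the lowest and highest value over all settings tried (lines) in the 4 comparisons, red class II and blue class I. Every class II line in the day 5 panels stays above 0 (0.26 to 2.01 in males, 0.29 to 0.98 in females), while those of class II at day 3 in males cross 0 except for H2-Ab1 A_52_P683598.

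Calls of class I rested on more choices than those of class II. Among the class II calls of males at day 5, 8 of 9 held in every setting, and the exception was Ciita. Of the 5 class I calls there, 0 held in every setting, as 0 remained when either replicate was left out. In females 5 of the 9 class II calls held in every setting. At day 3, 3 of the 7 class I calls did, those of B2m A_52_P105594 and both H2-D1 probes, and without replicate 1 these 3 alone stayed called higher. The brighter B2m probes were not among the 7.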

How the data were processed

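The 8 arrays are 2-colour Agilent 4x44k v1 mouse arrays, annotated on mm8. Scanner files came from Agilent Feature Extraction 9.5.3.1 or 10.7.1.1, per the file headers. As deposited, the intensity columns hold raw median signals of each spot and its local background. The authors' deposited log10 ratios, in the scanner files and the series matrix, are the software's and served as an alternative. The deposited flags are scores of 0 or 1 for spots above background, saturated or outlying, per the file headers.

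Background was corrected by normexp (offset 50) and ratios were normalized by loess in limma 3.58.1 (R 4.3.3, version 1.17.8 of data.table), turned for dye and averaged per probe. Of 41174 gene probes, 33330 passed the filter, with either channel flagged well above background on both arrays of a comparison. One limma fit, tested on simulated data, had 4 comparison terms and a dye term (3 residual and 3.9 prior degrees of freedom), with Benjamini-Hochberg adjustment over all probes. Pool signals were scaled by Aquantile. Members and lists were chosen with earlier results of these data known. Every member probe is reported, and each list by its counts with up to 4 examples in order of size. Ifng, Irf1, Adgre1, C1qb, Timd4, Zbtb46, Ccr7, Siglech and Xcr1 were named outside that order, after their values were seen. So were the B cell markers, the RFX and NF-Y subunits, and H2-Ea at day 3. Symbols came from RefSeq's gene list on GRCm38. The series text gives 11 untreated females, the sample labels 10.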

Additional observations from a re-analysis of the deposited data

Results flagged for a closer look

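For 10 member probes the response of males at day 5 differed from that at day 3 by the test of the difference itself (limma, adjusted p under 0.05). Higher at day 5 were H2-Aa, by 1.72 and 1.98 on the log2 scale by its 2 probes, H2-Ab1, by 1.53, 1.63, 1.51 and 1.28 by its 4 probes, H2-Eb1, by 1.23, Cd74, by 1.54, and Ciita, by 0.65. The B2m probe A_52_P105594 was lower at day 5, by -0.39 ± 0.10 (adjusted p 0.0497). The times lie on different slides, so slide and time cannot be told apart in these differences.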

How the results depend on the processing

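Across the alternatives, which left out 1 array, changed the background, normalization, filter, prior or arrays fitted, or took 1 probe per gene, 0 called member values changed sign. Member probes called lower in untreated males numbered 1 as reported, 0 without background subtraction, with the software's ratios and with 1 probe per gene, 2 with median centring, no filter or the own slide's arrays, and 0 to 2 when 1 replicate was left out. Those called higher in males at day 5 fell from 14 to 9 with the software's ratios, 7 with 1 probe per gene and 8 to 9 without 1 replicate. In females 9 became 5 with 1 probe per gene. At day 3, 7 became 11 with median centring, which added the 4 H2-Ab1 probes of class II, 3 with 1 probe per gene and 3 to 7 without 1 replicate, while 0 lower became 0 to 1. Probes that differed between the sexes numbered 0, or 1 with no filter. Those that differed between day 5 and day 3 numbered 10, 5 with 1 probe per gene and 3 to 9 without 1 replicate. The probe per gene setting tests 10 member probes in place of 20, and for the others the cause was not tested. Without the replicate block, that is without the dye term, 4 of 80 member values lost their call and all counts stayed within 1.5 times. Same-numbered arrays deviated together in only some pairs of comparisons (correlations of -0.0724 to 0.296), and replicate number and dye cannot be told apart. Class I ratios of 0.3 to 0.4 are near what 2 arrays can resolve here.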
